A study of Homo sapiens with 6 samples.

Results

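Genes of the transforming growth factor beta (TGF-beta) and bone morphogenetic protein (BMP) pathways were described by 10 members: the ligands TGFB1, TGFB2, BMP4 and BMP7, the receptor TGFBR2, the inhibitory signal transducers SMAD6 and SMAD7, and the target genes ID1, ID2 and ID3. They were taken by symbol from a deposited table of 39396 genes, which held a row for each of the 10. Ligands of this family bring together a type I and a type II receptor kinase. TGF-beta and activin receptors then phosphorylate SMAD2 and SMAD3, whereas BMP receptors phosphorylate SMAD1, SMAD5 and SMAD9, and both kinds of SMAD act with SMAD4 in the nucleus. SMAD6 and SMAD7 are induced by the pathway and feed back on its receptors, and the ID genes are immediate targets of BMP signalling. In the intestine, TGF-beta restrains the growth of epithelial cells, and BMP signalling opposes Wnt signalling along the crypt axis. Colorectal tumours that lack mismatch repair often carry frameshifts in a run of adenines in the coding sequence of TGFBR2, which a table of read counts does not show.

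RNA was sequenced from 3 libraries labelled olaparib, an inhibitor of PARP enzymes, and 3 labelled with the solvent DMSO. All 6 carry the labels of RKO, a mismatch-repair-deficient line from a colorectal carcinoma, of wild-type genotype, grown in EMEM medium with fetal bovine serum. Cells were plated 24 h before treatment; the sources used here give neither the dose nor the length of treatment. Nothing in the labels says that replicates were separate cultures, so p-values measure only how far these libraries spread, and that spread may be technical. Library totals were 28715138 to 31387990 counts in olaparib and 29544974 to 42423785 counts in DMSO.

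The groups differed in most of the transcriptome. Differences were tested gene by gene with edgeR's quasi-likelihood test, and a gene was called at a Benjamini-Hochberg adjusted p under 0.05. Of 17078 genes tested, 12927 were called, which is 75.7%, with 35.4% called higher and 40.3% called lower in olaparib. Of 12 intestinal epithelial markers, 4 averaged at least 1 CPM (counts per gene scaled to a common library size) in olaparib and 3 in DMSO, and CDX1 had no count in either group. Their summed level was 815 to 1092.9 CPM in olaparib and 242 to 311 CPM in DMSO. Of the 6 that were tested, 4 were higher in olaparib: the keratins KRT8 (581 ± 90.2 CPM in olaparib and 175 ± 23.3 CPM in DMSO) and KRT18 (326, 438 and 437 CPM in olaparib and 78.0, 84.3 and 63.5 CPM in DMSO), the epithelial adhesion protein EPCAM (4.67 ± 1.66 CPM in olaparib and 0.999 ± 0.129 CPM in DMSO) and the mucin MUC2 (5.3 ± 2.21 CPM in olaparib and 0.0237 ± 0.0411 CPM in DMSO). The 1 called lower was CDX2, which directs intestinal identity. It was without a count in olaparib and averaged 24.5 ± 2.0 CPM in DMSO (SD, n = 3). MUC2 passed the filter on low counts through the olaparib libraries alone, and CDX2 through the DMSO libraries alone. Both could therefore only be called in the direction seen. Of 7 markers of embryonic kidney, 1 averaged at least 1 CPM in olaparib and 7 did so in DMSO. Their summed level was 2.58 to 4.21 CPM in olaparib and 142 to 319.8 CPM in DMSO. IRS4 held most of the DMSO sum, at 220, 76.5 and 130 CPM, and PAX2, SALL1 and WT1 had no count in olaparib. Neuronal markers summed to 4.6 to 5.76 CPM in olaparib and 134 to 151 CPM in DMSO, with 2 of 6 and 4 of 6 at 1 CPM or more. The DMSO sum was mostly NEFL, NEFM and SYP (means of 55.4, 57.7 and 27.1 CPM). TUBB3 was not called (3.35 CPM in olaparib and 3.99 CPM in DMSO), and STMN2 and DCX had too few counts to be tested. Fibroblast markers summed to 2.58 to 4.08 CPM in olaparib and 27.4 to 29.9 CPM in DMSO, endothelial markers to 23 to 24.7 and 1.33 to 1.69 CPM, and blood markers to 0.384 to 1.63 and 2.24 to 3.07 CPM. The DMSO fibroblast sum was mostly LUM (mean of 18.9 CPM), and PDGFRB was not called (1.37 CPM in olaparib and 0.876 CPM in DMSO). A difference in the cells behind the 2 labels and an effect of olaparib cannot be told apart in this design, and the part of either in the values below was not tested. In bulk RNA, fewer cells of a kind and less RNA per cell cannot be told apart either.

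All 10 members passed the expression filter, BMP4 and BMP7 through the DMSO libraries alone. Of the 10, 9 were called: 4 were higher in olaparib (TGFB1, TGFB2, TGFBR2 and SMAD7) and 5 were lower (BMP4, BMP7, ID1, ID2 and ID3), while SMAD6 did not pass. The share called is set against 75.7% of all tested genes, so the number of calls alone says little about these members. In 8 of the 10 the groups did not overlap in CPM, against 79.4% of all tested genes. The median log2 fold change of the members was -0.17, beside -0.09 for all tested genes, and the median absolute value was 1.47, beside 0.94. Both TGF-beta ligands among the members were higher in olaparib, and both BMP ligands had no count there.

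**Figure D1:**
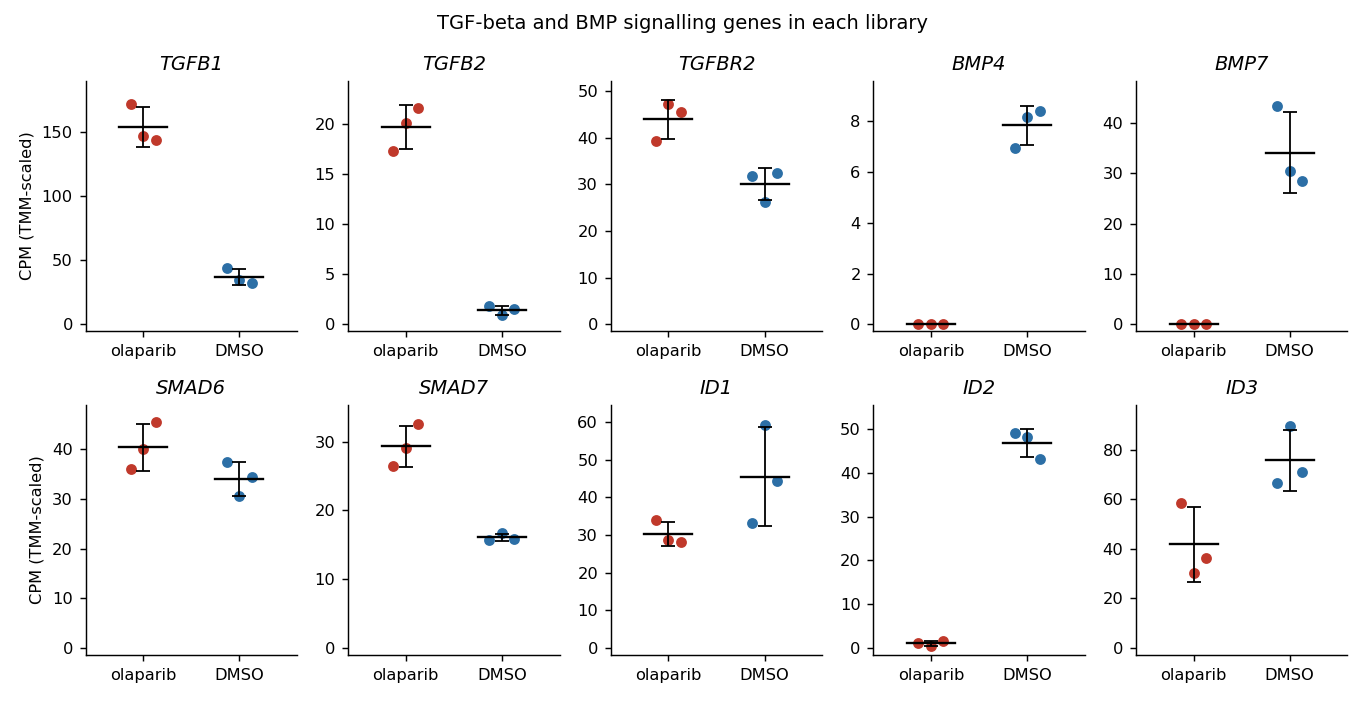
CPM relative to the TMM-scaled library size (vertical axis, linear) for each of the 10 genes in the 3 olaparib libraries (red) and the 3 DMSO libraries (blue). Points are libraries, the horizontal line is the group mean and the bar is 1 SD; BMP4 and BMP7 sit at 0 in all olaparib libraries, and the groups overlap for SMAD6 and ID1.

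Both TGF-beta ligands were higher in olaparib. TGFB1, the most widely expressed of the TGF-beta isoforms, stood at 172, 147 and 144 CPM in the olaparib libraries and at 43.6, 34.9 and 31.9 CPM in the DMSO libraries. Every olaparib library lay well above every DMSO library. The mean was 154 ± 15.6 CPM in olaparib and 36.8 ± 6.11 CPM in DMSO (SD, n = 3 each), a 4.19-fold difference with a log2 fold change of 2.07 ± 0.13 (SE, edgeR adjusted p = 4.08e-08). TGFB2, an isoform needed in the developing heart and palate of mice, stood at 17.3, 20.1 and 21.6 CPM in olaparib, against 1.78, 0.910 and 1.56 CPM in DMSO. These DMSO values rest on 75, 27 and 69 counts, and the groups were again far apart. TGFB2 was 13.6-fold higher in olaparib (log2 3.77 ± 0.23, SE, edgeR adjusted p = 2.88e-08).

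The genes around TGFB1 were more often lower than higher, opposite to TGFB1 itself. TGFB1 lies on chromosome 19 from 41301587 to 41353911 (hg38, minus strand), and 203 other tested genes within 5 Mb of it with a mean of at least 1 CPM had a median log2 fold change of -0.47, with 47 higher and 106 lower. TGFB2 lies on chromosome 1 from 218346235 to 218444619 (plus strand), where 30 such neighbours had a median of 0.50, with 18 higher and 8 lower. The TGFB1 gene body overlaps HNRNPUL1, CCDC97 and TMEM91 on the other strand, and exons of HNRNPUL1 overlap its own. The table does not say whether strand was used, so reads in such overlaps cannot be assigned. HNRNPUL1 and CCDC97 were 1.34-fold and 2.30-fold lower in olaparib, opposite to TGFB1, and TMEM91 was not called (edgeR adjusted p = 0.00279, 5.63e-07 and 0.328). TGFB2-OT1, which overlaps the end of TGFB2, had no count in any library.

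The promoters of the ligand pair differ in base composition and core elements, and are shown because the genes rose together. Sequences are the 100 bases before the RefSeq start site (GRCh38.p14), 5′ to 3′ on the gene's strand, for TGFB1 at chr19:41353923-41354022 (minus) and for TGFB2 at chr1:218345236-218345335 (plus). Capitals mark matches to TATAA on the gene's strand, to the E-box CACGTG, to GGCGCC or GTCTAGAC, which read the same on both strands, and to CAGAC on either strand.
TGFB1: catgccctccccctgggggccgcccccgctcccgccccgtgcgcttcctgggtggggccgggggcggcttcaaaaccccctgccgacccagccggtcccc
TGFB2: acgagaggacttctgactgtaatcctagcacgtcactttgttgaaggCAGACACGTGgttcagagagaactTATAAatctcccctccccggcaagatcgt
The TGFB1 window held 80% G and C and none of these 5 motifs. The TGFB2 window held 49% G and C, a TATAA starting 29 bases before the start site, a CACGTG at 49 bases and a CAGAC at 53 bases that shares letters with it. Among 35116 windows of the same length in the RefSeq promoter table, 6.72% held TATAA, 3.43% CACGTG, 8.57% GGCGCC, 15.7% CAGAC on either strand and 0.0598% GTCTAGAC. A match describes letters only.

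TGFBR2, the type II receptor that binds TGF-beta, was modestly higher. It stood at 39.2, 47.2 and 45.4 CPM in olaparib, against 31.7, 26.1 and 32.5 CPM in DMSO, and the groups did not overlap. The difference was 1.46-fold (log2 0.54 ± 0.12, SE, edgeR adjusted p = 0.00145). TGFBR2 lies on chromosome 3 from 30606502 to 30694142 (hg38, plus strand) in a region that was mostly lower in olaparib. Of 29 other genes within 5 Mb, 2 were higher and 21 lower, with a median of -0.81.

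The BMP ligands BMP4 and BMP7 had no count in any olaparib library. BMP4, which patterns mesoderm and signals from the stroma to the intestinal epithelium, held 293, 242 and 372 counts in the DMSO libraries, or 6.96, 8.16 and 8.41 CPM. Against a floor of 3 counts over the 3 olaparib libraries it was at least 228-fold lower in olaparib (edgeR adjusted p = 4.47e-08). BMP7, which is required for kidney and eye development in mice, held 1827, 906 and 1257 counts in DMSO, or 43.4, 30.5 and 28.4 CPM. It was at least 1003-fold lower in olaparib by the same floor (edgeR adjusted p = 5.03e-09). Such floors cover counting error only.

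BMP4 lies on chromosome 14 from 53949736 to 53958761 and BMP7 on chromosome 20 from 57168748 to 57266629 (hg38, both minus strand). The 66 neighbours of BMP4 within 5 Mb had a median log2 fold change of -0.42, with 16 higher and 35 lower, and the 32 neighbours of BMP7 had a median of 0.07, with 10 higher and 11 lower. BMP7-AS1, an antisense gene within BMP7, had no count in any library. The embryonic kidney markers, which were 142 to 319.8 CPM in sum in DMSO and 2.58 to 4.21 CPM in olaparib, changed in the same direction as BMP7 and BMP4; their part in this result was not tested.

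Other BMP ligands had counts in olaparib, among them BMP2, BMP6, BMP8A and BMP8B, singled out here after their values were seen. Per kilobase of exon, BMP2 averaged 8.84 ± 4.72 CPM in olaparib and 17.2 ± 5.25 CPM in DMSO, and BMP6 averaged 8.33 CPM in olaparib and 10.4 CPM in DMSO. BMP6 was not called (23.2 ± 9.81 CPM in olaparib and 28.9 ± 3.40 CPM in DMSO, log2 -0.32 ± 0.23, SE, edgeR adjusted p = 0.232), and neither was BMP8A (log2 -0.24 ± 0.24, SE, edgeR adjusted p = 0.372). BMP2 stood at 51.4, 20.1 and 24.1 CPM in olaparib and at 40.5, 76.4 and 68.7 CPM in DMSO, so that olaparib replicate 1 lay above DMSO replicate 1 and the groups overlapped. BMP2 was called lower with a log2 fold change of -0.96 ± 0.38 (SE, edgeR adjusted p = 0.0483). Without olaparib replicate 1 it was -1.49 (adjusted p = 0.000169), and the call was lost without DMSO replicate 2 (-0.79, adjusted p = 0.183), DMSO replicate 3 (-0.89, adjusted p = 0.0640), olaparib replicate 2 (-0.71, adjusted p = 0.101) or olaparib replicate 3 (-0.77, adjusted p = 0.120). It was also lost with DESeq2 (adjusted p = 0.0954) and with 4 other settings. With levels divided by exon length, BMP2 made up all of the summed BMP2, BMP4 and BMP7 level in every olaparib library and 52.3, 71.9 and 70.5% of it in the DMSO libraries, a share that the 0 counts of BMP4 and BMP7 fix in olaparib.

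**Figure D2:**
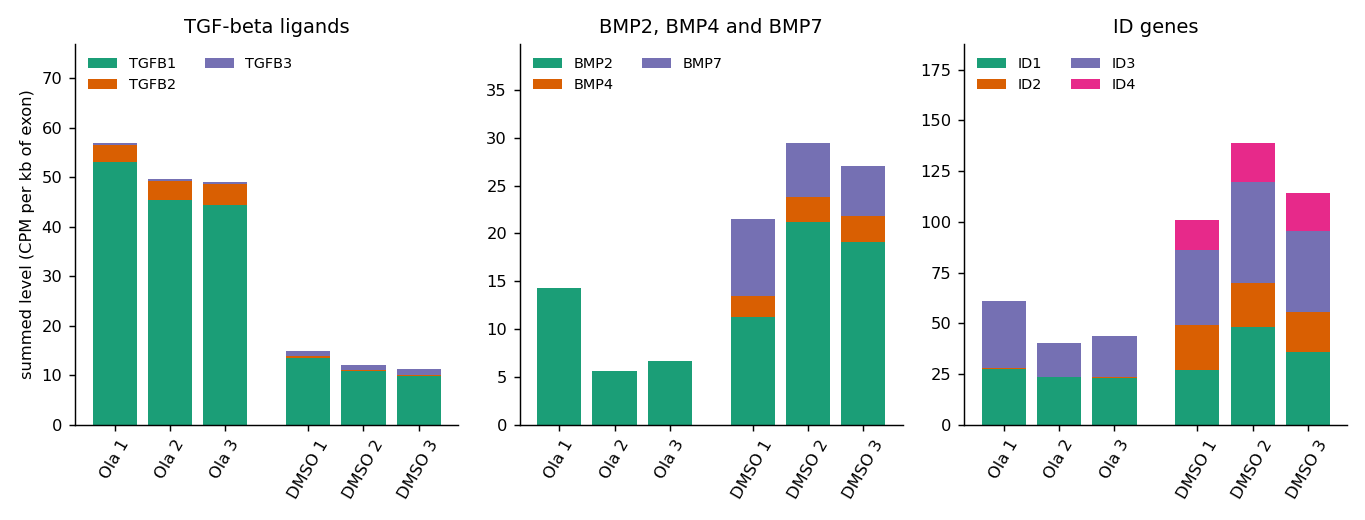
Summed level in CPM per kilobase of merged exon (vertical axis, linear from 0) of 3 gene families in each library, with olaparib libraries left of DMSO libraries and colours for the genes. TGFB1 dominates the TGF-beta ligands in every library, the middle panel, which holds BMP2, BMP4 and BMP7 and no other BMP ligand, shows BMP2 alone in olaparib, and ID2 and ID4 are nearly missing from the ID bars in olaparib.

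Of the inhibitory SMADs, SMAD7 was higher and SMAD6 did not pass the test. SMAD7, which recruits ubiquitin ligases to TGF-beta receptors, stood at 26.5, 29 and 32.5 CPM in olaparib and at 15.7, 16.7 and 15.9 CPM in DMSO. All olaparib values lay above all DMSO values, and the difference was 1.82-fold (log2 0.87 ± 0.12, SE, edgeR adjusted p = 4.13e-05). SMAD6, which mainly restrains BMP signalling, stood at 35.9, 40.0 and 45.4 CPM in olaparib and at 37.3, 30.5 and 34.4 CPM in DMSO. Olaparib replicate 1 lay below DMSO replicate 1, and the log2 fold change of 0.25 ± 0.12 (SE) was not called (edgeR adjusted p = 0.0830). SMAD6 passed without olaparib replicate 1 (0.33, adjusted p = 0.0447) or without DMSO replicate 1 (0.31, adjusted p = 0.0454), and its value was 0.16 without DMSO replicate 2 (adjusted p = 0.235). Per kilobase, SMAD6 made up 44.4 to 45.1% of the SMAD6 and SMAD7 sum in olaparib and 51.7 to 58.2% in DMSO.

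SMAD6 lies on chromosome 15 from 66702228 to 66782848 (hg38, plus strand) and SMAD7 on chromosome 18 from 48919853 to 48952052 (minus strand). Their neighbours within 5 Mb had medians of -0.21 over 73 genes and -0.15 over 28 genes. The SMAD6 promoter is shown because it holds the palindrome GTCTAGAC, the sequence known to bind SMAD3 and SMAD4, which is rare among promoters. The window is chr15:66702136-66702235 (GRCh38.p14, plus strand), with the match in capitals.
SMAD6: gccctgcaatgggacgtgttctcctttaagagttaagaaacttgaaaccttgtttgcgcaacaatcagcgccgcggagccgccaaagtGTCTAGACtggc
The palindrome starts 12 bases before the RefSeq start site and was found in 21 of the 35116 windows. None of the 3 SMAD7 windows in the table, which has 3 RefSeq start sites for that gene, held it within 100 bases. Bases outside these windows were not searched for either gene.

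The ID genes were all lower in olaparib, by very different amounts. They encode helix-loop-helix proteins without a DNA-binding region, which bind E proteins such as TCF3 and keep them from DNA. ID2 stood at 1.08, 0.555 and 1.52 CPM in olaparib, from 31, 17 and 43 counts, and at 49.1, 48.1 and 43.2 CPM in DMSO. The groups were far apart, with a 44.7-fold lower level in olaparib (log2 -5.48 ± 0.24, SE, edgeR adjusted p = 1.79e-09) and a 95% counting interval of 36.5 to 55.8 for the ratio of summed counts. That interval covers counting error only and leaves out the spread between libraries. ID3 stood at 58.7, 30.2 and 36.5 CPM in olaparib and at 66.5, 89.5 and 71.1 CPM in DMSO. Olaparib replicate 1 lay nearest to DMSO without reaching it, and the log2 fold change was -0.85 ± 0.21 (SE, edgeR adjusted p = 0.00292). ID1 stood at 34.0, 28.8 and 28.2 CPM in olaparib and at 33.2, 59.3 and 44.2 CPM in DMSO, where replicate 1 fell within the olaparib range. Its log2 fold change was -0.58 ± 0.18 (SE, edgeR adjusted p = 0.0103), and DMSO replicate 2 weighed on it: without that library the value was -0.36 (adjusted p = 0.0381). ID3 was -1.18 without olaparib replicate 1 and -0.66 without olaparib replicate 2, and lost its call when every gene with a count was tested (adjusted p = 0.0555).

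ID1 lies on chromosome 20 from 31605283 to 31606515 (hg38, plus strand), ID2 on chromosome 2 from 8678845 to 8684453 (plus strand) and ID3 on chromosome 1 from 23557918 to 23559794 (minus strand). Their neighbours within 5 Mb had medians of 0.02 over 67 genes, -0.64 over 27 genes and -0.23 over 129 genes. ID2-AS1, an antisense gene whose exons overlap those of ID2, had 36 olaparib counts and 88 DMSO counts over the libraries and was not called (log2 -0.84 ± 0.46, SE, edgeR adjusted p = 0.115). The 3 promoters are shown because the genes fell together. They are the 100 bases before the RefSeq start, at chr20:31605189-31605288 for ID1, chr2:8681956-8682055 for ID2 and chr1:23559502-23559601 for ID3, with capitals as above.
ID1: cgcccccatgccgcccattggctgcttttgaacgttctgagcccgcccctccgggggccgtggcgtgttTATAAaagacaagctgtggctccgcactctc
ID2: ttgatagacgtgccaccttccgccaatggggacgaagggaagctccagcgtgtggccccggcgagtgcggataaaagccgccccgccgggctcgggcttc
ID3: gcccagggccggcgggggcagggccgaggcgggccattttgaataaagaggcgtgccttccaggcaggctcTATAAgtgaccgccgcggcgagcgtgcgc
TATAA occurred 31 bases before the start in ID1 and 29 bases before it in ID3, and no motif of the 5 was found in the ID2 window. The G and C content was 63% for ID1, 67% for ID2 and 70% for ID3, beside a median of 60% over all windows. GENCODE places starts further upstream for all 3 genes, so these windows follow RefSeq alone.

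**Figure D3:**
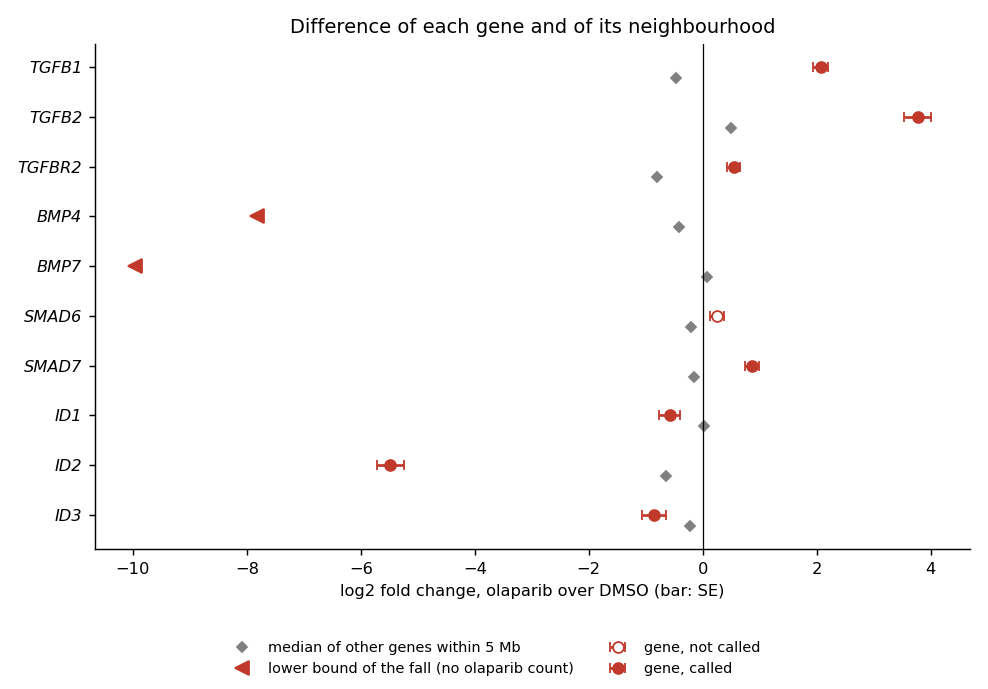
Log2 fold change of olaparib over DMSO (horizontal axis) for each member, with SE bars, filled where called and hollow where not; triangles give the bound for BMP4 and BMP7 against a floor of 3 counts. Grey diamonds are the median of other tested genes within 5 Mb, which lie between -0.81 and 0.50.

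Levels were put in order only after division by merged exon length, as mean CPM per kilobase. In olaparib, TGFB1 led at 47.6 ± 4.81, followed by ID1 at 24.6 ± 2.61, ID3 at 23.3 ± 8.33, TGFBR2 at 9.34 ± 0.887, SMAD7 at 5.83 ± 0.602, SMAD6 at 4.72 ± 0.552, TGFB2 at 3.82 ± 0.421 and ID2 at 0.477 ± 0.219 CPM per kilobase (SD, n = 3). The ranges of ID1 and ID3, of SMAD7 and SMAD6, and of SMAD6 and TGFB2 overlapped across the libraries. Within single libraries, SMAD7 stood above SMAD6 in each, at 55.6, 55.2 and 54.9% of their sum, and SMAD6 stood above TGFB2 in each. ID1 stood below ID3 in olaparib replicate 1 and above it in replicates 2 and 3. In DMSO, ID3 led at 42.1 ± 6.77, followed by ID1 at 36.9 ± 10.6, ID2 at 21.2 ± 1.42, TGFB1 at 11.4 ± 1.89, TGFBR2 at 6.40 ± 0.742, BMP7 at 6.30 ± 1.49, SMAD6 at 3.97 ± 0.397, SMAD7 at 3.20 ± 0.106, BMP4 at 2.54 ± 0.252 and TGFB2 at 0.275 ± 0.0879 CPM per kilobase. Only ID3 and ID1, and TGFBR2 and BMP7, overlapped with the next gene there. TGFB1 thus led the order in olaparib, while ID3, ID1 and ID2 stood above it in DMSO, where TGFB2 was last.

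The other genes of the pathway were read from 11 lists with 116 genes, of which 96 were tested. Among these, 27 were higher and 41 lower in olaparib, so 70.8% were called, near the 75.7% of all tested genes, and their median log2 fold change was -0.10. The 20 untested genes held 268 counts in all. The plot of the pathway lists shows each gene by role.

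**Figure D4:**
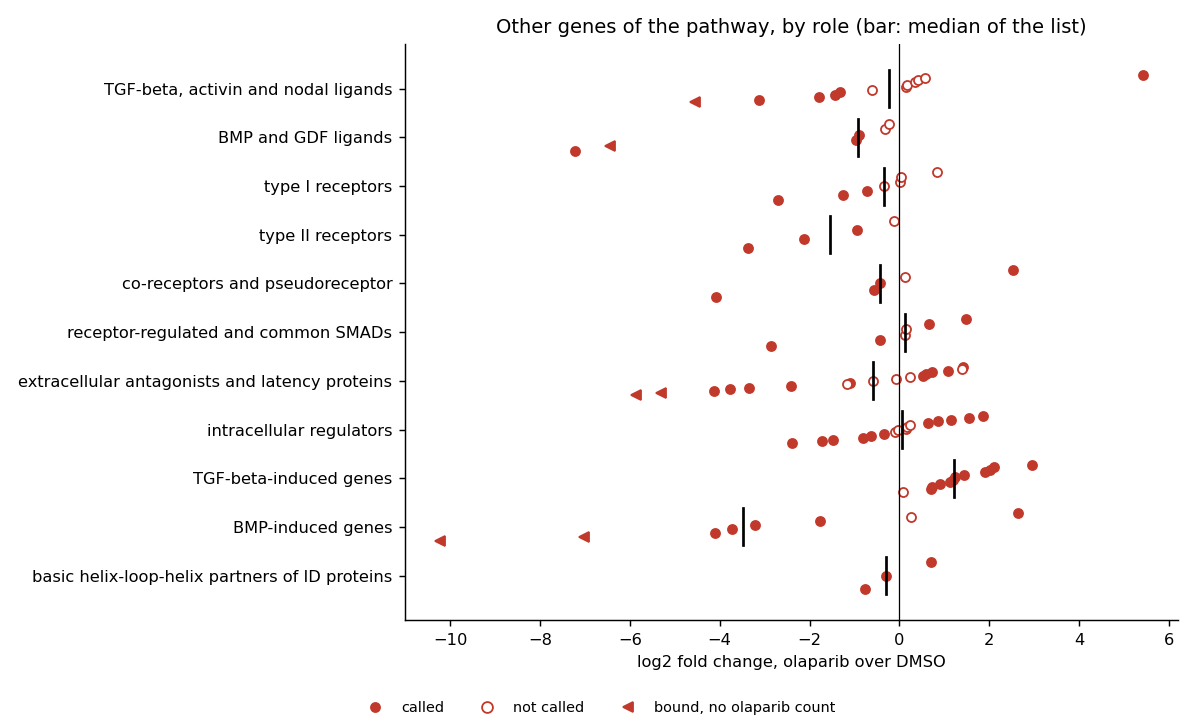
Log2 fold change of olaparib over DMSO (horizontal axis) for each tested gene of the 11 other pathway lists, filled where called, hollow where not, with triangles for bounds of genes without an olaparib count and a bar at each list's median. The TGF-beta-induced genes lie at or right of 0, whereas most BMP-induced genes lie left of it.

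Ligands other than the members were mostly lower or not called. Of 12 tested TGF-beta, activin and nodal ligands, 1 was higher and 5 were lower (median -0.24). Among the lower genes, GDF10 had no olaparib count and INHBC held 17 over the olaparib libraries. Both passed the filter through the DMSO libraries alone and could only be called lower. GDF15, a stress-induced member of the family, stood at 388, 157 and 156 CPM in olaparib and at 2.90, 7.38 and 6.19 CPM in DMSO, so that all olaparib libraries were far higher and replicate 1 the highest. Its difference was 43.0-fold (log2 5.43 ± 0.53, SE, edgeR adjusted p = 4.33e-05), and 4.84 on the log2 scale without olaparib replicate 1. TGFB3, the remaining TGF-beta isoform, was 2.51-fold lower in olaparib, opposite to TGFB1 and TGFB2, and made up 0.657 to 0.997% of the summed TGF-beta ligand level per kilobase in olaparib and 7.14 to 9.56% in DMSO. INHBB, a subunit of activin B, was 8.74-fold lower. Of 6 tested BMP and GDF ligands, none was higher and 4 were lower (median -0.92), among them BMP8B, 1.85-fold lower, GDF6, at least 86-fold lower and without an olaparib count, and GDF7. GDF6 and GDF7 passed the filter through the DMSO libraries alone and could only be called lower. GDF7 held 4 counts over the olaparib libraries and 881 in DMSO, a ratio of 166 with a 95% counting interval of 64.7 to 611. This interval leaves out the spread between libraries.

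No type I or type II receptor on the lists was called higher, beside 35.4% higher and 40.3% lower among all tested genes. The lists leave out the member TGFBR2, a type II receptor that was called higher. Of 7 type I receptors 3 were lower, with a median of -0.35: ACVR1B and ACVR1C, which bind activin and nodal, were 2.39-fold and 6.51-fold lower, and TGFBR1, the kinase that TGFBR2 activates, was 1.63-fold lower. TGFBR1 averaged 81.9 ± 8.42 CPM in olaparib and 134 ± 16.4 CPM in DMSO, opposite in direction to TGFBR2. ACVR1C moved to -3.47 on the log2 scale without olaparib replicate 1, from -2.70 with all libraries. Of 4 type II receptors 3 were lower: the activin receptors ACVR2A and ACVR2B by 1.93-fold and 4.35-fold, and AMHR2 by 10.3-fold. AMHR2, the receptor of anti-Müllerian hormone, held 16 counts over the olaparib libraries and 213 in DMSO. It passed the filter through the DMSO libraries alone and could only be called lower. The BMP receptors BMPR1A, BMPR1B and BMPR2 were not called (log2 0.03 ± 0.11, 0.02 ± 0.21 and -0.11 ± 0.14, SE), and these 3 genes were picked out after their values were seen. Among 5 tested co-receptors, ENG (endoglin) was 5.80-fold higher, RGMA, a BMP co-receptor, 17.0-fold lower, and BAMBI, a receptor-like protein without a kinase, 1.47-fold lower, with the BAMBI call lost without olaparib replicate 2 or 3 (edgeR adjusted p = 0.0746 and 0.0856). In all, 1 co-receptor was higher and 3 were lower. Endothelial markers, 23 to 24.7 CPM in sum in olaparib and 1.33 to 1.69 CPM in DMSO, were mostly CDH5 in olaparib (20.5 ± 0.106 CPM, against 0.128 ± 0.182 CPM in DMSO). Of the 5 markers, CDH5 and PECAM1 were called higher like ENG, and KDR was called lower (13.8-fold, edgeR adjusted p = 0.00113). CDH5 passed the filter through the olaparib libraries alone and KDR through the DMSO libraries alone. VWF was not called and TEK was not tested. The part of these markers in the ENG result was not tested.

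Of 6 receptor-regulated and common SMADs, 2 were higher and 2 lower. SMAD2 and SMAD3, which carry TGF-beta signals, were 2.80-fold and 1.58-fold higher in olaparib (159 ± 18.4 CPM in olaparib against 56.7 ± 5.68 CPM in DMSO, and 56.6 ± 0.771 CPM in olaparib against 35.7 ± 5.14 CPM in DMSO). SMAD9, which carries BMP signals, was 7.23-fold lower (2.13 ± 1.12 CPM in olaparib and 15.4 ± 0.759 CPM in DMSO), and the other lower gene was SMAD1, 1.34-fold. SMAD5, also a BMP SMAD and the most abundant of the 3 in CPM, was not called (96.1 ± 5.32 CPM in olaparib and 86.9 ± 11.5 CPM in DMSO, log2 0.14 ± 0.11, SE, edgeR adjusted p = 0.267), and neither was SMAD4 (adjusted p = 0.292). Of 16 intracellular regulators 5 were higher and 6 lower (median 0.06): SKIL, a repressor of SMAD activity that TGF-beta induces in a feedback loop, was 3.67-fold higher, whereas the corepressor TGIF2 was 3.31-fold lower and FKBP1A, which holds type I receptors inactive, 2.77-fold lower.

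Among 17 tested extracellular antagonists and latency proteins, 5 were higher and 7 lower (median -0.59). Of the lower genes, CHRDL1 and SOSTDC1 had no olaparib count, and CHRD, BMPER and NRROS held 14, 6 and 5 over the olaparib libraries. All of these passed the filter through the DMSO libraries alone and could only be called lower. LTBP1 and LTBP3, which bind latent TGF-beta and store it in the matrix, moved in opposite directions: LTBP1 was 5.33-fold lower in olaparib and LTBP3 2.67-fold higher. TWSG1, which binds BMPs together with chordin, was 2.13-fold lower.

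Genes that TGF-beta is known to induce were higher in 11 of 12 cases and lower in none, beside 35.4% higher among all tested genes. Their median log2 fold change was 1.21. CDKN2B, an inhibitor of CDK4 and CDK6, was 4.30-fold higher, at 123 ± 5.6 CPM in olaparib and 28.5 ± 1.83 CPM in DMSO. The matrix protein TGFBI was 4.02-fold higher (215 ± 7.09 CPM in olaparib and 53.5 ± 9.43 CPM in DMSO). The gene that was not called was KLF10. Many genes of this list also respond to other signals, and whether TGF-beta signalling differed was not measured. The list was chosen with earlier results of these data known, so its share beside that of all genes is description only.

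Genes that BMPs are known to induce were lower in 6 of 8 tested cases and higher in 1, beside 40.3% lower among all tested genes, with a median of -3.47. ID4, the remaining ID gene, had no count in olaparib and averaged 41.3 ± 5.18 CPM in DMSO, at least 1196-fold lower in olaparib. HEY1, a transcriptional repressor also induced by Notch, was 13.3-fold lower, at 6.25 ± 1.20 CPM in olaparib and 82.9 ± 4.49 CPM in DMSO, and the homeobox gene MSX2 was 17.1-fold lower (1.05 ± 0.116 CPM in olaparib and 18.1 ± 1.63 CPM in DMSO). The gene that was higher was RUNX2, by 6.26-fold, GATA2 was not called, and SP7 and HAMP were not tested. ID4 and DLX5, both without an olaparib count, passed the filter through the DMSO libraries alone and could only be called lower. Several of these genes are developmental regulators with tissue-specific expression, and 7 of 7 embryonic kidney markers and 3 of 4 tested neuronal markers were also called lower in olaparib; their part was not tested. The counts of 11 TGF-beta-induced genes higher and 6 BMP-induced genes lower were the same without each library in turn and under each other alternative, a check added after the data were seen. The list of BMP-induced genes was likewise chosen with earlier results known, so its share is description only.

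The 3 E proteins on the list, which ID proteins bind, were all called, in both directions. TCF12 was 1.63-fold higher in olaparib, TCF4 1.70-fold lower and TCF3 1.22-fold lower, and the TCF3 call was lost under 6 of 14 alternatives (edgeR adjusted p of 0.0517 to 0.155 there).

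**Figure D5:**
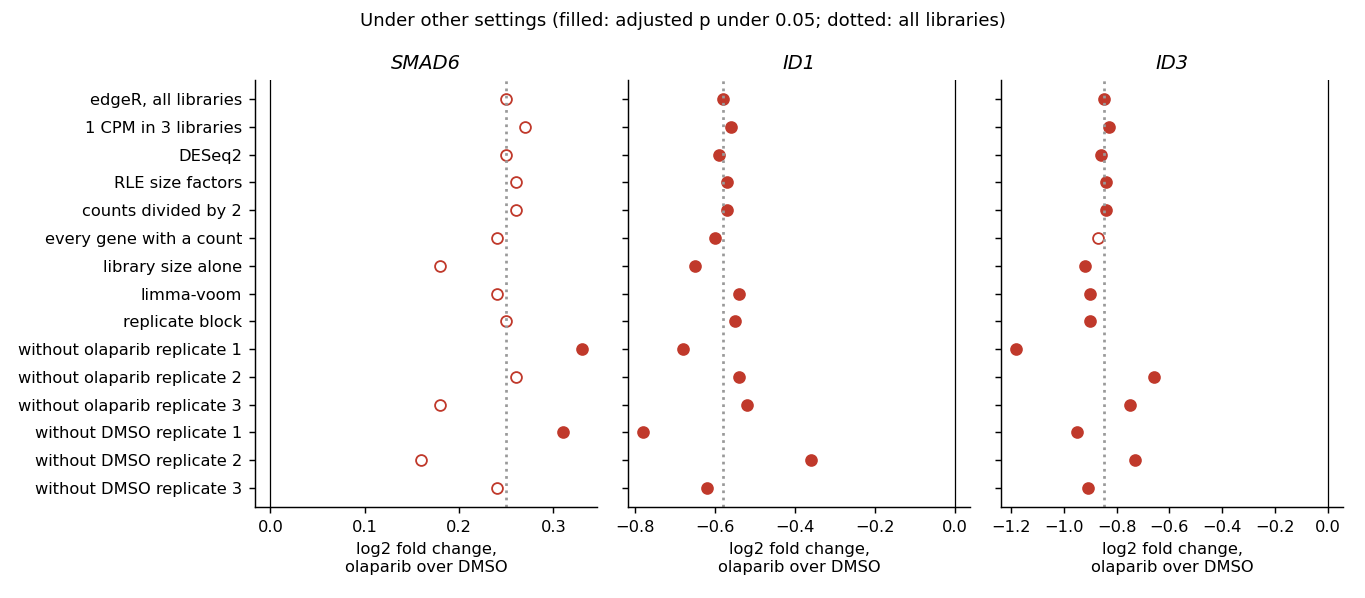
Log2 fold change of olaparib over DMSO (horizontal axes) of SMAD6, ID1 and ID3 under the main settings and 14 alternatives, filled at an adjusted p under 0.05. ID1 runs from -0.78 to -0.36 and ID3 from -1.18 to -0.66, all below 0, and SMAD6 from 0.16 to 0.33, filled under 2 settings; the 1 hollow ID3 point is the test of every gene with a count.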

How the data were processed

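RNA sequencing gave 1 table of raw read counts per gene symbol, which the authors deposited without normalization. Per the submitters' processing notes, reads were handled with fastp and STAR on hg38; neither the program that counted reads, nor strand, nor annotation is given in the sources used here. Groups and replicate numbers came from the sample titles. The members, gene lists and naming rule (all members, any overlapping gene, and, from each list, up to 3 called genes that ranked first by adjusted p and had a mean of at least 1 CPM) were chosen with earlier results of these data known. One of the genes that the rule names is not reported here.

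The test was edgeR's (version 4.0.16, R 4.3.3), a robust quasi-likelihood fit with treatment as the only term, after the default filter on low counts and TMM scaling, over all 17078 genes that passed. SEs were derived from the F statistic. CPM is relative to the TMM-scaled library size. Positions and merged exon lengths came from GENCODE 29 for 99.8% of rows; promoter sequences came from RefSeq, for 9 of the 10 members. More genes held 2 counts than 1 in every library, so both reads of a pair may have been counted and counting intervals may be too narrow. Any pair of libraries of 1 group differed beyond sampling noise (chi-square per degree of freedom 4.74 to 68.6). The fits were first tested on simulated data. Alternatives were DESeq2 1.42.0, limma-voom (limma 3.58.1), RLE factors, library size alone, other filters, halved counts, the replicate number as a block and the loss of each library.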

Additional observations from a re-analysis of the deposited data

How the results depend on the processing

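Over 14 alternatives, 137 of 140 member values kept their direction and call and none turned sign; the exceptions are SMAD6, which passed under 2 settings, and ID3, which failed when every gene with a count was tested. Between 8 and 10 members were called, 63 to 72 of the other pathway genes and 11762 to 14226 of all tested genes. For 34 of the other pathway genes, 459 of 476 values kept their direction and call, and the other 17, of BMP2, TCF3 and BAMBI, lost the call with the same sign. These 34 were the genes picked by the naming rule for a small adjusted p in the main fit, with BMP2 added. That choice by itself favoured keeping the call. With the replicate number as a block, 9 members were called, and among these genes BMP2 (adjusted p = 0.186) and TCF3 (adjusted p = 0.0736) lost theirs. Same-numbered libraries did not deviate together (correlations of -0.18, -0.13 and -0.011). Libraries with different numbers gave correlations from -0.11 to 0.18. With 3 libraries per group, this check cannot settle whether the numbers pair the samples. The neighbourhood median turned sign with a 10 Mb window for TGFB2 (-0.09) and ID1 (-0.22). It moved by more than the within-group SD with a 2 Mb window for TGFB1 (-0.65), TGFB2 (0.33), TGFBR2 (-1.25) and SMAD6 (-0.45), and with a 10 Mb window for ID3 (-0.48); the cause was not tested. Scaling by library size alone shifted all genes by a median of -0.068 (log2). Olaparib BMP4 and BMP7 values are limited by depth, and were below 3 counts over 3 libraries.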
